A study of Mus musculus with 11 samples.

Results

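Mouse embryonic fibroblasts (MEF) 1 day after induction of the reprogramming factors were compared with the uninduced MEF they came from, by sequencing of small RNA. The comparison used 2 of the 11 libraries of the series, 1 library for day 1 and 1 for MEF. It covered 1412 of the 3859 small RNA genes in the deposited table, namely those whose mean over the 11 libraries was at least 10 FPKM (fragments per transcript length and per mapped fragments of the library), less 7 genes whose MEF value was treated as missing. Of the 1412 genes, 876 are microRNAs (miRNAs) and 413 small nucleolar RNAs (snoRNAs) in the GENCODE annotation, and the others are mostly ribosomal RNA copies and small Cajal body RNAs.

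The series followed fibroblasts on their way to induced pluripotent stem cells (iPSC), with libraries of MEF, of days 1 to 8, of an established iPSC line and of an embryonic stem cell (ESC) line. The day 1 library came from secondary MEF of the Mbd3f/- line given doxycycline (DOX) for 1 day, and the MEF library from the same line without DOX. Both carried the floxed and the deleted allele of Mbd3, a subunit of a chromatin-remodelling complex, and the DOX-inducible cassette for Oct4, Klf4, Sox2 and Myc (OKSM). Induction took place in low oxygen, in a medium with serum and LIF. Any part of oxygen and medium in the differences below was not tested. Neither library was on feeder cells, while days 3 to 8, iPSC and ESC were plated on irradiated human foreskin fibroblasts. Both stages carry the same Mbd3 alleles, so the comparison does not measure what the Mbd3 alleles do. The labels give no sorting of the fibroblasts before induction. Each stage had 1 library, so no difference below has a replicate check and none was tested; 95% intervals of a fold are exact binomial ones on the implied reads and cover counting error only.

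miRNAs are short RNAs, cut from hairpin transcripts, that pair with messenger RNAs mainly through bases 2 to 8 of the mature strand, the seed, and lower their output. In mouse pluripotent cells the miR-290 and miR-302 clusters dominate and speed the cell cycle, and the related miR-17-92 cluster is a known target of Myc. Fibroblasts are known for miR-199a, miR-214, miR-21, miR-143 and let-7. snoRNAs are cut from introns of host genes, many of which encode ribosomal proteins or ribosome assembly factors; C/D box snoRNAs guide methylation of ribosomal RNA, and H/ACA box snoRNAs guide its conversion of uridine to pseudouridine.

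Mature sequences of the miRNAs on which the results turn are given first, from RefSeq (GRCm38.p6), 5′ to 3′, with the seed in capitals. The first group holds the pluripotency miRNAs that share the seed AAGUGCU, from the miR-290 cluster (miR-291a-3p at chr7:3218968-3218989, plus strand) and from the miR-302 cluster (miR-302d-3p at chr3:127545665-127545687, plus strand).
mmu-miR-291a-3p: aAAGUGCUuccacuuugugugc
mmu-miR-294-3p: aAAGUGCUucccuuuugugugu
mmu-miR-295-3p: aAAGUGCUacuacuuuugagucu
mmu-miR-302d-3p: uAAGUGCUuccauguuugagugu
The second group holds miRNAs of the miR-17-92 cluster and its relatives with the seed AAAGUGC, which contains 6 of the bases of the seed above, moved by 1 position (miR-17-5p at chr14:115043684-115043706, plus strand).
mmu-miR-17-5p: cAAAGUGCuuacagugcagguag
mmu-miR-20a-5p: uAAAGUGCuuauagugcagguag
mmu-miR-93-5p: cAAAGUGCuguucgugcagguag
mmu-miR-106a-5p: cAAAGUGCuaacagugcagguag
The third group holds miRNAs that were lower on day 1: miR-16-5p, miR-195a-5p and miR-322-5p, which share the seed AGCAGCA and are known to restrain the cell cycle, miR-26a-5p, and the muscle miRNA miR-206-3p.
mmu-miR-16-5p: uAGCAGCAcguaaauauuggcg
mmu-miR-195a-5p: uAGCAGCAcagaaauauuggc
mmu-miR-322-5p: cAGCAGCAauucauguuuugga
mmu-miR-26a-5p: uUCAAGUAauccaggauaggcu
mmu-miR-206-3p: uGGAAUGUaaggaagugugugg

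Across all 1412 genes the small RNA profile moved widely in the first day. As deposited, many snoRNAs and the miR-290 and miR-17-92 clusters stood higher, while 5 of 8 muscle miRNAs and 23 of 50 miRNAs of the imprinted Dlk1-Dio3 region stood at least 2-fold lower. On the deposited values 533 genes (37.7%) were at least 2-fold higher on day 1 than in MEF and 194 (13.7%) at least 2-fold lower. The scale was log2(FPKM + 10), which is used for every difference below. It shrinks the change of low genes, but 1 read against 0 can still pass 2-fold. The snoRNA Gm24702, with 51.6 FPKM (1.00 read) in MEF and 0 on day 1, differed by −2.62. Among miRNAs 271 (30.9%) were higher and 147 (16.8%) lower, and among snoRNAs 207 (50.1%) were higher and 25 (6.05%) lower.

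The scaling of the 2 libraries sets the balance between higher and lower. The median-ratio factor, the typical level of a library over the 787 genes above 0 in all 11 libraries, was 1.05 on day 1 and 0.546 in MEF, the lowest of the 11. Dividing by it moved the median difference over the 1412 genes to 0.00, against 0.39 as deposited, and gave 368 genes (26.1%) at least 2-fold higher and 370 (26.2%) at least 2-fold lower. The split for miRNAs was then 176 (20.1%) higher and 295 (33.7%) lower, and for snoRNAs 157 (38.0%) higher and 45 (10.9%) lower. Medians of the gene lists and of the groups of snoRNAs are therefore given as deposited and rescaled. With 4 scalings (as deposited, median ratios, quantile normalization of the 2 libraries, and the summed FPKM of miRNA genes), 8 of 35 gene lists had a median above 0 under each of the 4, 17 had a median below 0 under each, and 10 changed sign or lay at 0.

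**Figure D1:**
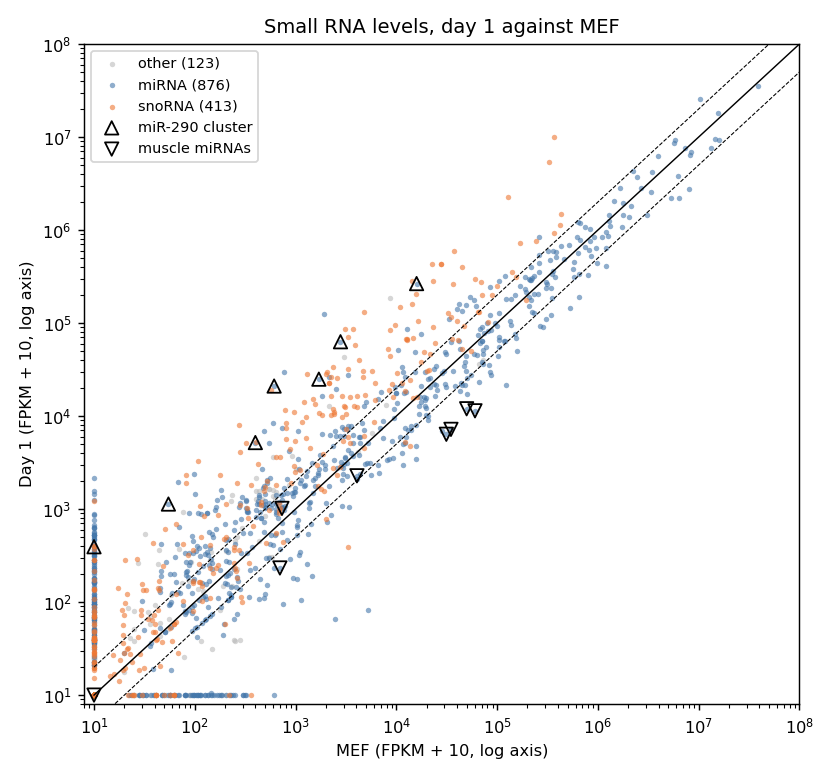
Level of each of the 1412 small RNA genes on day 1 (vertical, FPKM + 10, log axis) against MEF (horizontal, FPKM + 10, log axis), with lines at equality and at 2-fold; miRNAs are blue, snoRNAs orange and other classes grey. The 7 miR-290 cluster genes (upward triangles) lie above the upper 2-fold line, 5 of the 8 muscle miRNAs (downward triangles) below the lower line, and most snoRNAs above equality.

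Depth was similar in the 2 libraries. The steps of low values imply about 12450000 mapped reads on day 1 and 11550000 in MEF, of which 59.2% on day 1 and 48.9% in MEF fell on genes of the table. The day 1 share includes the abundant miRNAs treated as missing in MEF, which count as 0 there. The gap between these shares is therefore not read as a difference between the libraries. Without those genes, miRNAs held 5536684 implied reads on day 1 and 5557868 in MEF. Of the reads in the table, snoRNAs took 5.93% on day 1 and 1.29% in MEF, and miRNAs took 93.7% on day 1 and 98.3% in MEF. These shares also count the genes missing in MEF on day 1 only, which makes the day 1 share of snoRNAs smaller. One read of a transcript of 80 nt is worth 46.2 FPKM on day 1 and 49.8 FPKM in MEF, so values under about that level rest on about 1 read. Zeros were common at that depth: 304 of the 1412 genes were listed at 0 on day 1 and 403 in MEF. Among the 440 genes with at least 100 reads in the higher library, a limit chosen after the values were seen, 169 (38.4%) were higher and 52 (11.8%) lower. In the 286 miRNAs of that depth 50 (17.5%) were higher and 50 (17.5%) lower, with a median difference of −0.09 as deposited and −1.04 rescaled. After rescaling 20 of these 286 were higher and 147 lower.

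The 232 miRNAs with a mean of at least 10000 FPKM had 33 genes higher, 36 lower and a median of −0.13, or −1.07 after rescaling. Of the 10 miRNA genes of highest mean, Mir92-1 was at least 2-fold higher as deposited, at 2.49-fold, 7 lay within 2-fold and 2 were missing in MEF. Mir10b, in the Hoxd gene cluster, had 35624300 FPKM on day 1 and 38849200 FPKM in MEF. Mir21, a miRNA of fibroblasts and of growth responses, had 18102000 FPKM on day 1 and 15382600 FPKM in MEF. Mir148a had 7675840 FPKM on day 1 and 13119300 FPKM in MEF, Mirlet7i had 6819220 FPKM on day 1 and 8414990 FPKM in MEF, and Mir181a-2 had 9327480 FPKM on day 1 and 5818370 FPKM in MEF. Mir541 of the Dlk1-Dio3 region had 9361680 FPKM on day 1 and 15936300 FPKM in MEF, and Mir99b had 9572110 FPKM on day 1 and 14489300 FPKM in MEF. After rescaling Mir10b at −1.07, Mir148a at −1.72, Mirlet7i at −1.25, Mir541 at −1.71 and Mir99b at −1.54 were past 2-fold lower. Mir143 and Mir127, also among the 10 miRNA genes of highest mean, stood at 40549900 and 20991000 FPKM on day 1 and were both listed at 0 in MEF. With Mir10a, Mir136, Mir431, Mir433 and Mir434 these 2 make up the 7 genes treated as missing in MEF, since each held between 3479 and 531084 implied reads on day 1. Of these 7 genes, 5 lie within the Rtl1-antisense stretch of the Dlk1-Dio3 region, and those 5 were also listed at 0 on day 4.

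The labelled cell type was checked first. The 7 fibroblast and mesenchymal miRNAs that could be compared summed to 24394800 FPKM on day 1 and 25552800 FPKM in MEF, and none of them was at 0 in either library. Mir21 made up most of both sums, at 1.18-fold, and every other gene of the 7 was below its MEF value as deposited. Mir199a-1, a miRNA of mesenchymal cells, had 3825850 FPKM on day 1 and 6216420 FPKM in MEF. Mir214, from the Dnm3os transcript that also carries Mir199a-2, had 89741 FPKM on day 1 and 287077 FPKM in MEF, 0.313-fold. Of the 7, Mir214 was the gene lower by at least 2-fold as deposited, and 6 of the 7 were after rescaling. The list's median was −0.67, or −1.61 after rescaling. The copies Mir199a-1 and Mir199a-2 give the same mature strands, and Mir199b nearly the same, so the authors' counting could split reads among them. Messenger RNA of Mbd3 and of the cassette genes was not analysed here.

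Pluripotency miRNAs were higher on day 1, and below their day 2 levels. All 7 genes of the miR-290 cluster (chr7:3218626-3220841), which makes the most abundant miRNAs of mouse ESC, were at least 2-fold higher, with a median difference of 4.37, or 3.55 after rescaling, against 0.39 and 0.00 over all genes. All 7 were also past 2-fold after rescaling. The shares over all miRNAs are 30.9% higher as deposited and 20.1% after rescaling. Mir295 had 265541 FPKM on day 1 and 15865 FPKM in MEF, 16.7-fold. Mir292 had 62932 FPKM on day 1 and 2780 FPKM in MEF, 22.6-fold. Mir291a had 21006 FPKM on day 1 and 602 FPKM in MEF, 34.9-fold (95% interval 20.2 to 65.9). These 3 genes rest on 3801, 1463 and 488 reads on day 1 and on 211, 60.0 and 13.0 reads in MEF. Mir293 was 14.7-fold higher and Mir294 13.3-fold higher. Mir290 had 1122 FPKM on day 1 and 44.7 FPKM in MEF, which is 1 read in MEF, and Mir291b had 383 FPKM on day 1 and was listed at 0 in MEF, so no fold is given for either. MEF was the lowest of the 11 libraries, or tied for it, in 6 of the 7 genes, against 354 of all 876 miRNAs.

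The cluster took 0.117% of miRNA reads on day 1 (exact 95% interval 0.114% to 0.119%) and 0.00590% in MEF (0.00528% to 0.00658%). Each of its 7 genes was at least 2-fold higher again on day 2, where Mir295 reached 3706300 FPKM and Mir291a 258247 FPKM. Over all miRNAs 86 of the 271 higher genes were higher again. The day 2 step shares the day 1 library with the comparison to MEF. The miR-302 cluster, the other pluripotency family with that seed, was measured on few reads. Mir302d had 1428 FPKM on day 1, from 18.1 reads, and was listed at 0 in MEF, and Mir302b had 173 FPKM on day 1, from 3.01 reads, and was also listed at 0 in MEF. In all, 3 of 5 genes of that cluster were higher, both as deposited and after rescaling. The shares over all miRNAs are 30.9% and 20.1%. The cluster's median was 3.05, or 2.99 after rescaling, and Mir367 was listed at 0 in both libraries. Mir302a lay within 2-fold, with 140 FPKM on day 1, from 2.01 reads, and 75.5 FPKM in MEF, from 1.00 read.

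**Figure D2:**
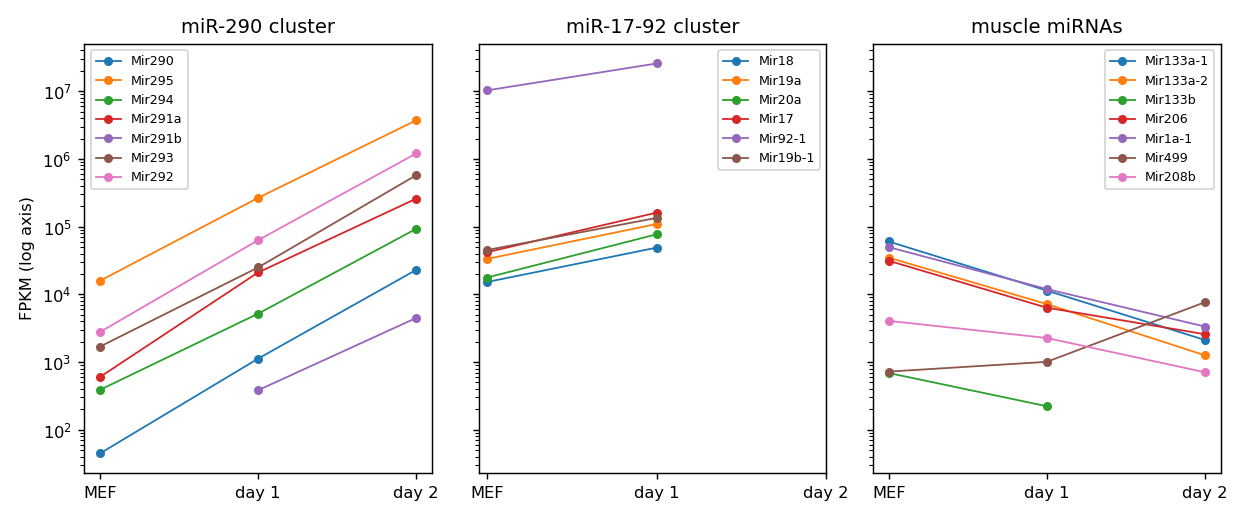
FPKM (vertical, log axis) in MEF, on day 1 and on day 2 (horizontal), 1 library each, for the miR-290 cluster, the miR-17-92 cluster and muscle miRNAs; a value listed at 0 has no point. The miR-290 lines climb at both steps, the 6 miR-17-92 genes are higher on day 1 and listed at 0 on day 2, and the 4 abundant muscle genes are lower on each later day.

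miRNAs of the miR-17-92 cluster and its 2 relatives were higher on day 1 as deposited, by less than the miR-290 cluster. The miR-17-92 cluster, made from the Mir17hg transcript (chr14:115043671-115044506), promotes proliferation and survival. All 6 of its genes were at least 2-fold higher, with a median of 1.70, or 0.76 after rescaling. After rescaling 1 of 6 was past 2-fold, and 1 of 6 stayed so under each of the 4 scalings. Over all miRNAs 30.9% were at least 2-fold higher as deposited and 20.1% after rescaling. Mir92-1 had 25639000 FPKM on day 1 and 10277600 FPKM in MEF, 2.49-fold. Mir17 had 160784 FPKM on day 1 and 41856 FPKM in MEF, 3.84-fold. Mir20a had 76902 FPKM on day 1 and 17689 FPKM in MEF, 4.35-fold and the largest difference in the cluster. The cluster took 10.3% of miRNA reads on day 1 and 3.79% in MEF. On day 2 all 6 genes were listed at 0, although Mir92-1 held 555358 implied reads on day 1, so the day 2 level of this cluster is not used.

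The X-linked relative, miR-106a-363, showed the same direction on fewer reads. Its 6 genes were all at least 2-fold higher as deposited, and 3 of 6 after rescaling. The shares over all miRNAs are 30.9% and 20.1%. The cluster's median was 1.87, or 0.94 after rescaling. MEF was the lowest of the 11 libraries in all 6, where it was lowest or tied in 354 of all 876 miRNAs. Mir92-2 had 282617 FPKM on day 1 and 104205 FPKM in MEF, and Mir20b had 971 FPKM on day 1 and 149 FPKM in MEF. Mir106a had 2398 FPKM on day 1 and 89.0 FPKM in MEF, where it rests on 1.00 read. In the third cluster, miR-106b-25 in an intron of Mcm7, Mir93 had 322375 FPKM on day 1 and 119218 FPKM in MEF. As deposited 2 of its 3 genes were at least 2-fold higher, and none after rescaling, beside the same shares over all miRNAs. The median was 1.32, or 0.38 after rescaling. Mir92-1 and Mir92-2, and likewise Mir19b-1 and Mir19b-2, make the same mature strand, so their reads cannot be assigned to a copy with certainty.

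Grouping genes by the seed of a RefSeq mature strand put these families side by side; 655 of the 876 miRNA genes matched such a sequence. The 5 genes matched to the seed AAGUGCU (Mir291a, Mir294, Mir295, Mir302b and Mir302d) were all higher, with a median of 4.19 (4.13 rescaled). Mir302a of the miR-302 cluster was not among the matched genes, and its difference was 0.81 (−0.05 rescaled). The 6 with AAAGUGC were all higher, with a median of 2.03 (1.09 rescaled), and the 7 with AUUGCAC, the seed of miR-92a and miR-25, had 4 genes higher and a median of 1.01 (0.07 rescaled). At the other end, the 7 genes with AGCAGCA were all below 0, with 3 lower by at least 2-fold and a median of −0.68 (−1.62 rescaled). The shares of all 876 miRNA genes past 2-fold were 30.9% higher and 16.8% lower.

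Of the 8 muscle miRNAs compared, 5 were at least 2-fold lower on day 1, and 5 were at least 2-fold lower at both steps up to day 2. Over all miRNAs 22 of the 147 lower genes were lower at both steps. The muscle miRNAs mark skeletal and heart muscle cells, which MEF cultures can hold. Mir206, a miRNA of skeletal muscle, had 6356 FPKM on day 1 and 31309 FPKM in MEF, 0.203-fold (95% interval 0.162 to 0.250). Mir133a-1 had 11374 FPKM on day 1 and 60284 FPKM in MEF, 0.189-fold (0.157 to 0.224). Mir1a-1 had 11964 FPKM on day 1 and 49796 FPKM in MEF, 0.240-fold. The 5 lower genes were so under each of the 4 scalings and none was at least 2-fold higher, against 16.8% lower and 30.9% higher over all miRNAs, with a median of −1.82, or −2.76 after rescaling. Mir499 went the other way, with 722 FPKM in MEF, 1006 FPKM on day 1 and 7625 FPKM on day 2. Mir208b had 2269 FPKM on day 1 and 4052 FPKM in MEF, and Mir208a was listed at 0 in both. The list took 0.0165% of miRNA reads on day 1 and 0.0685% in MEF. In bulk RNA, fewer muscle cells and less muscle miRNA per cell cannot be told apart. Mir133a-1 and Mir133a-2 make the same mature strand and the copies are uncertain.

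miRNAs of other cell types did not move as a block. Mir126 of endothelial cells had 21468 FPKM on day 1 and 44995 FPKM in MEF. The 3 erythroid genes summed to 336281 FPKM on day 1 and 650685 FPKM in MEF, nearly all from Mir486, and Mir144 was listed at 0 on day 1 with 598 FPKM in MEF. The 6 white blood cell genes summed to 4646110 FPKM on day 1 and 3870590 FPKM in MEF, mostly from Mir146, with 4241610 FPKM on day 1 and 3408870 FPKM in MEF. Their median was −0.14, or −1.09 after rescaling. Mir511 of macrophages was lower, with 5176 FPKM on day 1 and 12073 FPKM in MEF, and Mir223 had 16297 FPKM on day 1 and 24400 FPKM in MEF. Mir150 of lymphocytes was higher, with 19600 FPKM on day 1 and 2493 FPKM in MEF, 7.86-fold. The 7 epithelial genes (the 5 of the miR-200 family, Mir203 and Mir205) summed to 52020 FPKM on day 1 and 91819 FPKM in MEF. Mir429 and Mir141 were at least 2-fold lower as deposited, and all 7 were after rescaling. The list's median was −0.81, or −1.74 after rescaling. The name Mir142 in the table carries the ID of a gene on the opposite strand in GENCODE, so its 129465 FPKM on day 1 and 232146 FPKM in MEF are uncertain. What part shifts in cell make-up have in the other differences was not tested.

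Among miRNAs linked to arrest of the cell cycle and to differentiation, the miR-26 and miR-322 families were lower and let-7 stayed near its MEF level as deposited. Mir26a-1, in an intron of Ctdspl, had 2228070 FPKM on day 1 and 6412040 FPKM in MEF, 0.347-fold, and Mir26a-2, in an intron of Ctdsp2, had 2776760 FPKM on day 1 and 7976440 FPKM in MEF, 0.348-fold. The copies share the mature strand printed above. Mir26b, which has its own sequence, had 1456480 FPKM on day 1 and 1761650 FPKM in MEF. The family's median was −1.52, or −2.47 after rescaling, and it took 3.16% of miRNA reads on day 1 and 7.34% in MEF.

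The X-linked miR-322 cluster had 4 of 7 genes at least 2-fold lower as deposited and 7 of 7 after rescaling. The shares over all miRNAs are 16.8% and 33.7%. Among the 286 miRNAs with at least 100 reads, 50 were lower as deposited and 147 after rescaling. The cluster's median was −1.05, or −1.99 after rescaling. Mir322 had 122575 FPKM on day 1 and 343777 FPKM in MEF, and Mir351 had 2202510 FPKM on day 1 and 5352610 FPKM in MEF. Within the same cluster Mir542 had 105352 FPKM on day 1 and 135081 FPKM in MEF, so its genes were not lower by the same fold. Of the miR-15 and miR-16 genes, which share a seed with miR-322, Mir195 and Mir497 were at least 2-fold lower as deposited and all 6 after rescaling, with a median of −0.63, or −1.58 after rescaling. Mir16-1 had 633752 FPKM on day 1 and 952635 FPKM in MEF. The table's Mir497 carries the ID of an opposite-strand gene in GENCODE and is uncertain.

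The let-7 family, which opposes pluripotency and growth factors such as Lin28 and Myc, had no gene lower by 2-fold as deposited and 1 of 10 higher. After rescaling 7 of 10 were at least 2-fold lower and none higher. Of the 286 miRNAs with at least 100 reads, 147 were lower after rescaling. Mirlet7f-2 had 3680440 FPKM on day 1 and 2438210 FPKM in MEF, and Mir98, a let-7 family member beside it in Huwe1, had 536808 FPKM on day 1 and 262397 FPKM in MEF, 2.05-fold. The median was −0.17, or −1.11 after rescaling, and the family took 8.23% of miRNA reads on day 1 and 7.90% in MEF. Mir100, of the miR-99-100-125 group that is often made with let-7, had 327587 FPKM on day 1 and 791857 FPKM in MEF. It was the gene of 6 lower by 2-fold as deposited, and all 6 were after rescaling. Mir210, a miRNA that low oxygen induces, had 69035 FPKM on day 1 and 152472 FPKM in MEF.

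Imprinted miRNAs of the Dlk1-Dio3 region on chromosome 12 are made from the maternal transcripts Rian and Mirg among others. At least 2-fold lower were 23 of the 50 genes compared as deposited and 45 of 50 after rescaling. The shares over all miRNAs are 16.8% and 33.7%. Among the 286 miRNAs with at least 100 reads, 50 were lower as deposited and 147 after rescaling. Of the 59 genes, 50 were compared, 5 were missing in MEF and 4 were below the limit on the mean. As deposited 2 were higher and 25 lay within 2-fold, with a median of −0.97, or −1.89 after rescaling. Mir370 had 21662 FPKM on day 1 and 122943 FPKM in MEF, 0.176-fold (95% interval 0.159 to 0.195), the lowest fold of the list. Mir134 had 144882 FPKM on day 1 and 526108 FPKM in MEF, and Mir379 had 411991 FPKM on day 1 and 1194080 FPKM in MEF. Not all of the abundant genes were lower: Mir382 had 214339 FPKM on day 1 and 192727 FPKM in MEF. The 2 genes past 2-fold in the other direction, Gm23912 and Mir3070a, each rest on about 6 reads or fewer. The compared genes took 7.71% of miRNA reads on day 1 and 12.8% in MEF.

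Rian also carries snoRNAs in its introns, and these lay near the level of snoRNAs in general. Of 10 Rian snoRNAs compared, 5 were at least 2-fold higher and none lower, with a median of 1.06, or 0.32 after rescaling. AF357425 had 22870 FPKM on day 1 and 6128 FPKM in MEF, and Gm24895 had 11917 FPKM on day 1 and 2345 FPKM in MEF. DQ267102 had 2805 FPKM on day 1 and 2751 FPKM in MEF. Over all snoRNAs 50.1% were higher and 6.05% lower, with a median of 1.00, or 0.22 after rescaling. The Rian snoRNAs are near that background, so their counts are not read as a result about the region.

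The miRNA repeats in an intron of Sfmbt2 (chr2:10465287-10518279), a rodent-specific array of miR-466, miR-467 and miR-669 genes, were higher as deposited and near the general level after rescaling. Of its 107 genes 85 passed the limit on the mean, 44 of them were at least 2-fold higher and 1 lower, and the median was 1.07, or 0.14 after rescaling. After rescaling 21 were higher and 5 lower, and over all miRNAs 30.9% were higher and 16.8% lower as deposited, and 20.1% and 33.7% after rescaling. Mir467c had 7203 FPKM on day 1 and 3017 FPKM in MEF, and Mir466b-5 had 1051 FPKM on day 1 and 151 FPKM in MEF. Among the 85, those listed at 0 numbered 15 on day 1 and 31 in MEF. The copies are near-identical, so the value of any single copy is uncertain.

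**Figure D3:**
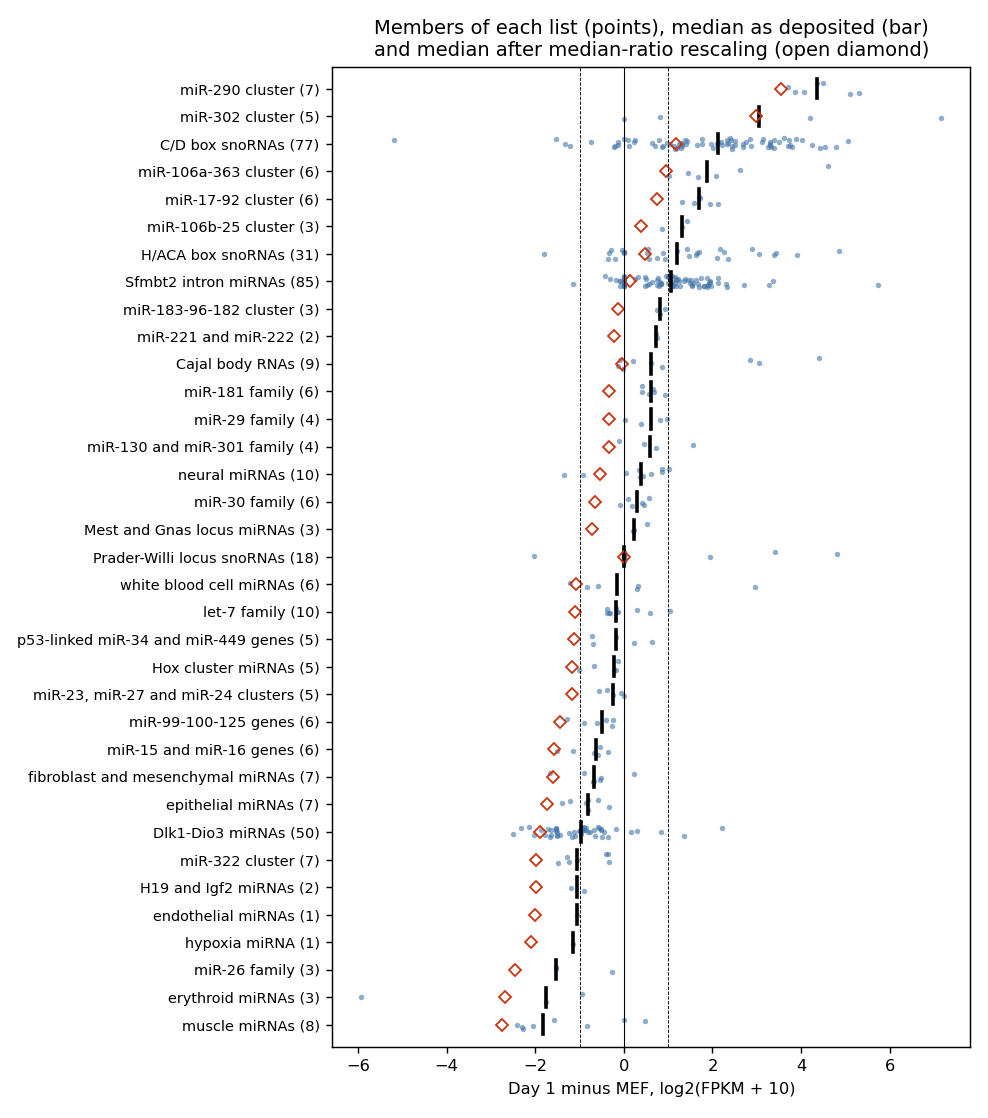
Difference between day 1 and MEF, log2(FPKM + 10) (horizontal), for the members of each of 35 gene lists (points, with the number compared in brackets), with the list's median as deposited (bar) and after median-ratio rescaling (open diamond); dashed lines mark 2-fold. Medians run from 4.37 in the miR-290 cluster to −1.82 in muscle miRNAs, and rescaling shifts most lists left, so that lists between about 0.2 and 0.9 as deposited cross 0.

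A larger share of snoRNAs than of miRNAs was higher on day 1, 50.1% against 30.9% as deposited. Among the 140 snoRNAs with at least 100 reads in the higher library, 110 (78.6%) were at least 2-fold higher and 2 (1.43%) lower, with a median of 2.08, or 1.14 after rescaling. MEF was the lowest of the 11 libraries in 91 of the 140, against 132 of the 440 genes of that depth. Over all 1412 genes it was lowest, or tied for it, in 683, and its median-ratio factor was also the lowest. The share of table reads in snoRNAs was lowest in MEF of all 11 libraries, and it stood at 7.18% on day 2.

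The C/D box list, which guides methylation of ribosomal RNA, holds genes named Snord outside the Prader-Willi list. It had 57 of 77 genes higher and 4 lower, with a median of 2.13, or 1.18 after rescaling. The median over all snoRNAs was 1.00, or 0.22 after rescaling. Among the 140 snoRNAs with at least 100 reads 78.6% were higher, with a median of 2.08, or 1.14 after rescaling. The C/D count and median are near those of that depth. The H/ACA box list had 16 of 31 compared genes higher and 1 lower, with a median of 1.21, or 0.49 after rescaling, and 9 of its 40 genes were below the limit on the mean. Over all 413 snoRNAs 50.1% were higher and 6.05% lower, so the H/ACA count is near that background. Snora44 had 7945 FPKM on day 1 and 266 FPKM in MEF, and Snora24 had 11680 FPKM on day 1 and 768 FPKM in MEF. Of the Cajal body RNAs, which guide modification of spliceosomal RNAs, 3 of 9 were higher, with Scarna17 at 183595 FPKM on day 1 and 8667 FPKM in MEF, 21.2-fold, and none was lower. Scarna3a had 6564 FPKM on day 1 and 5689 FPKM in MEF. The list's median was 0.62, and −0.04 after rescaling.

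Sequences of 5 snoRNAs with both boxes that were more than 10-fold higher on day 1 are given from the genome (GRCm38, transcribed strand, 5′ to 3′), with the C box TGATGA and the D box CTGA in capitals. They come from introns of genes for ribosomal proteins (Rpl13a, Rps12), of Rack1, a protein of the small ribosomal subunit, and of Gas5, a non-coding host whose introns carry its stable products. Snord95 lies at chr11:48803139-48803206 on the plus strand, Snord33 at chr7:45126864-45126947 and Snord32a at chr7:45127382-45127464 on the minus strand, Snord100 at chr10:23785750-23785823 on the minus strand and Gm23212 at chr1:161036682-161036741 on the plus strand.
Snord95: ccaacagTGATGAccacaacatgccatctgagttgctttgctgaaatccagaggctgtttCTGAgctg
Snord33: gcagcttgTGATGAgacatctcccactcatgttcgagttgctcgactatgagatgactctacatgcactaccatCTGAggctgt
Snord32a: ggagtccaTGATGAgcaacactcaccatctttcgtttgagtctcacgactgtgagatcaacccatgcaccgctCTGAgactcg
Snord100: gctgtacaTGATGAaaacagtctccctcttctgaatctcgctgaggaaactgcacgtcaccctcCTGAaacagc
Gm23212: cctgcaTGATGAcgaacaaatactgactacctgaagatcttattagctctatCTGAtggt
The letters TGATGA within the first 25 bases and CTGA starting in the last 24, on the transcribed strand, occurred together in 187 of the 413 snoRNAs (45.3%). Of those 187, 96 were at least 2-fold higher and 11 lower, with a median of 1.04, against 111 higher and 14 lower of the 226 without the pair, with a median of 0.98. After rescaling the order turned round, with medians of 0.10 with the pair and 0.37 without it.

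Of 52 snoRNAs within ribosomal protein genes 33 were at least 2-fold higher and none lower, where 50.1% of all snoRNAs were higher and 6.05% lower and 78.6% of those with at least 100 reads were higher. The median was 1.65, or 0.73 after rescaling, which left 25 higher and 2 lower. Snord33 had 86387 FPKM on day 1 and 3718 FPKM in MEF, 23.2-fold. Snord100 had 132740 FPKM on day 1 and 4784 FPKM in MEF, 27.7-fold. The 3 snoRNAs of Rpl17 summed to 5508540 FPKM on day 1 and 348629 FPKM in MEF. Nop58 and Nop56 encode core proteins of the snoRNA particles themselves. Of 4 snoRNAs in Nop58 introns 3 were higher and the median was 2.75, or 1.81 after rescaling, with Snord70 at 25609 FPKM on day 1 and 2574 FPKM in MEF, and of 5 in Nop56 introns 4 were higher and 1 lower as deposited and 2 higher and 1 lower after rescaling. Gm26287 in Nop58 had 223 FPKM on day 1 and 240.1 FPKM in MEF, and Gm24451 in Nop56 was at practically 0 on day 1 and had 31.5 FPKM in MEF. These are few snoRNAs beside a background of 50.1% higher. All 3 snoRNAs in introns of Ncl, which encodes nucleolin, were higher, with a median of 2.32, or 1.68 after rescaling. So were all 3 of Gnl3, which encodes nucleostemin, a nucleolar protein of stem cells, with a median of 3.14 and all 3 past 2-fold under each of the 4 scalings, and with Snord19 at 429063 FPKM on day 1 and 22643 FPKM in MEF.

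snoRNAs of the same host differed widely among themselves. Within Rpl13a, Snord34 had 2775 FPKM on day 1 and 2337 FPKM in MEF, 1.19-fold, beside 23.2-fold for Snord33 in another intron of that gene. Within Rack1, Snord95 had 600417 FPKM on day 1 and 37268 FPKM in MEF, 16.1-fold, while Snord96a had 15520 FPKM on day 1 and 14521 FPKM in MEF, 1.07-fold. Within Gas5, Gm23212 had 10023800 FPKM on day 1 and 368825 FPKM in MEF, 27.2-fold, while Gm22489 had 18519 FPKM on day 1 and 12246 FPKM in MEF, 1.51-fold. Of the 9 transcripts of Gas5 6 were at least 2-fold higher, with a median of 1.31, or 0.37 after rescaling. Of the 8 of Snhg1 7 were higher and 1 lower, with a median of 1.66, or 0.71 after rescaling. The host transcripts themselves were not analysed here.

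As deposited 25 of the 413 snoRNAs were at least 2-fold lower. The 3 snoRNAs in introns of Hspa8, which encodes a heat shock family chaperone, were all at least 2-fold lower: Snord14c had 5227 FPKM on day 1 and 12122 FPKM in MEF, Snord14d had 4719 FPKM on day 1 and 13689 FPKM in MEF, and Snord14e was at practically 0 on day 1 and had 352 FPKM in MEF. Their median was −1.53, or −2.48 after rescaling. The Snord14 copies are similar in sequence, and reads could be split between them. Of the 77 snoRNAs in Snhg14, the imprinted host of the Prader-Willi region that is known mainly from neurons, 66 were listed at 0 in each library, 8 were at least 2-fold lower under each of the 4 scalings and 7 were higher, and the median difference was 0.00. These 8 are among the 25 snoRNAs lower as deposited. Of the 8, Gm22348 had 8.01 reads on day 1 and 64.0 in MEF, and Gm25089 had 0 on day 1 and 4.00 in MEF. The rest of the 8 were listed at 0 on day 1 and held about 1 read each in MEF, so passing under 4 scalings does not make them firm. The 7 higher ones had 0.998 read each on day 1 and were listed at 0 in MEF.

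**Figure D4:**
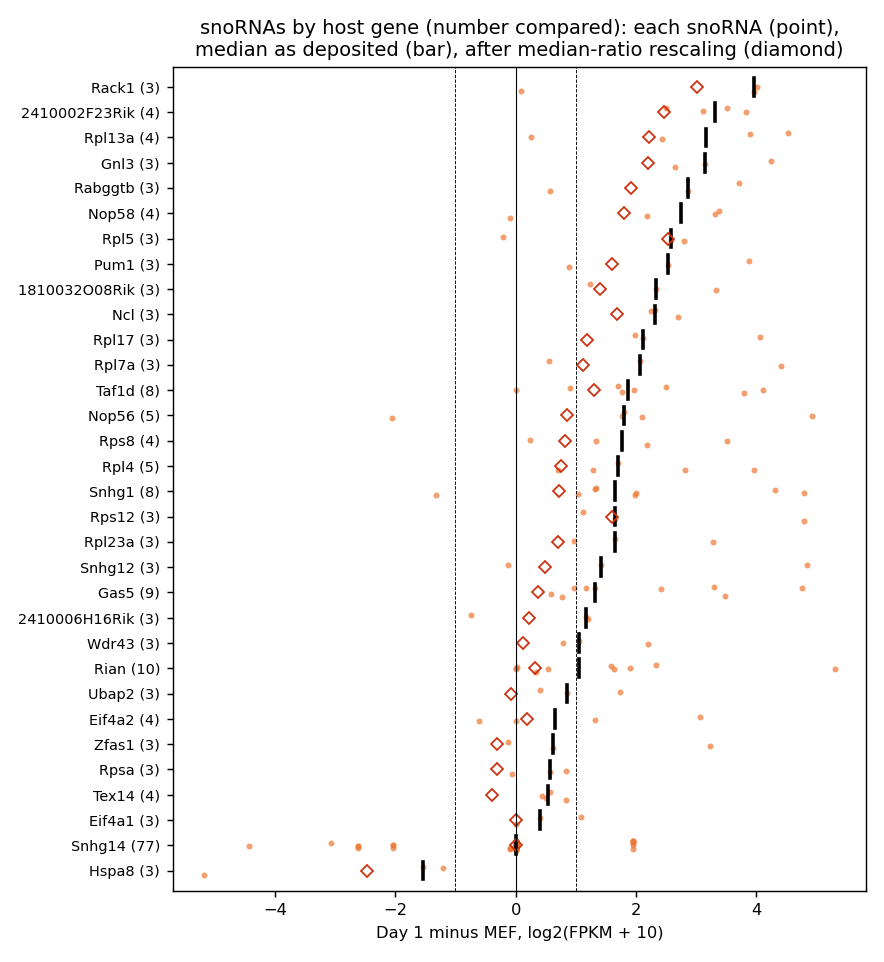
Difference between day 1 and MEF, log2(FPKM + 10) (horizontal), of each snoRNA (point) by host gene, with the number compared in brackets, the host's median as deposited (bar) and after median-ratio rescaling (diamond); dashed lines mark 2-fold. Most hosts have a median above 0, the 3 snoRNAs of Hspa8 lie below the lower dashed line, and points of a single host spread widely, in Rack1 from 0.10 to 4.01 and in Gas5 from 0.60 to 4.76.

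Of the 57 C/D box genes that were at least 2-fold higher on day 1, 17 were then at least 2-fold lower on day 2. That is near the background of 62 of the 207 higher snoRNAs and 136 of the 533 higher genes. The genes were picked for a high value in the day 1 library, which both steps share, so the count alone does not show a return. Snord95 had 176363 FPKM on day 2, and Snord33 had 18818 FPKM, still above their MEF levels. In the same list 2 genes were at least 2-fold higher at both steps, where 16 of the 207 higher snoRNAs were. For all 1412 genes the step to day 2 had 29.0% at least 2-fold higher and 15.7% at least 2-fold lower, and it shares the day 1 library with the step before it.

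The 10 largest differences in each direction, among genes with at least 1000 FPKM in the higher library, were mostly genes outside the families above. On the higher side mmu-mir-6539, within the span of Dock5, had 125281 FPKM on day 1 and 1898 FPKM in MEF, 66.0-fold (95% interval 53.9 to 80.9), and stood at 483607 FPKM on day 2. CR974451.1 on chromosome 17, annotated as a miRNA, had 29930 FPKM on day 1 and 751 FPKM in MEF, 39.8-fold (26.8 to 60.6). Gm23519, the snoRNA that GENCODE names Snord60, had 19169 FPKM on day 1 and 565 FPKM in MEF, 33.9-fold, and Gm23187, within Nop56, had 3290 FPKM on day 1 and 98.8 FPKM in MEF. Mir291a and Mir302d were also among the 10. The other 4 stood at 0 or practically 0 in MEF: mmu-mir-6399 with 2167 FPKM on day 1, mmu-mir-7070 with 1536, Mir1982 with 1254 and Gm22589 with 1220, from 54.0, 41.0, 21.8 and 23.7 reads.

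On the lower side Mir3968 had 71.6 FPKM on day 1 and 5231 FPKM in MEF, 0.0137-fold (0.00280 to 0.0406), from 2.99 reads on day 1 and 203 in MEF. Gm26117, in Adgrb1, had 55.8 FPKM on day 1 and 2432 FPKM in MEF, from 2.00 reads on day 1 and 80.8 in MEF. Mir370, Mir133a-1, Mir206 and Mir544, described with their groups or of the Dlk1-Dio3 region, were also among the 10. The other 4 rest on few reads in the lower library: mmu-mir-6901, Mir3093 and Mir5122 had 94.0, 181 and 168 FPKM on day 1 against 1113, 1443 and 1019 FPKM in MEF, and the snoRNA Gm22348 had 383 FPKM on day 1 and 3302 FPKM in MEF.

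Set beside the later daily steps, the first day had the largest share of genes past 2-fold after rescaling. With median-ratio rescaling 52.3% of the 1412 genes differed by at least 2-fold between day 1 and MEF, against 42.4% between day 2 and day 1 and then 37.0%, 36.8%, 33.9%, 31.0%, 35.8% and 31.7% at the steps to days 3, 4, 5, 6, 7 and 8. As deposited, the first day had 51.5% and the step to day 2 44.7%. The later steps as deposited had 38.4%, 39.4%, 35.4%, 33.2%, 52.6% and 35.1%, and at the step to day 7, which exceeds the first day on this scale, 46.0% of genes were at least 2-fold lower. Days 6 and 7 differ in their median-ratio factors, 0.599 on day 7 and 1.2 on day 6. Neighbouring steps share a library, each step is a comparison of 2 single libraries, and from day 3 on the libraries also hold feeder cells. Depth differed as well, and MEF and day 1 had the fewest implied reads. A read of a transcript of 80 nt is worth 49.8 FPKM in MEF and 46.2 FPKM on day 1. It is worth 45.8 FPKM on day 5 and 39.2 FPKM on day 6. On day 3 it is worth 29.6 FPKM and on day 7 26.3 FPKM. Among low genes 1 read can pass 2-fold, so these shares also depend on depth. What part depth has in the order of the steps was not tested.

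**Figure D5:**
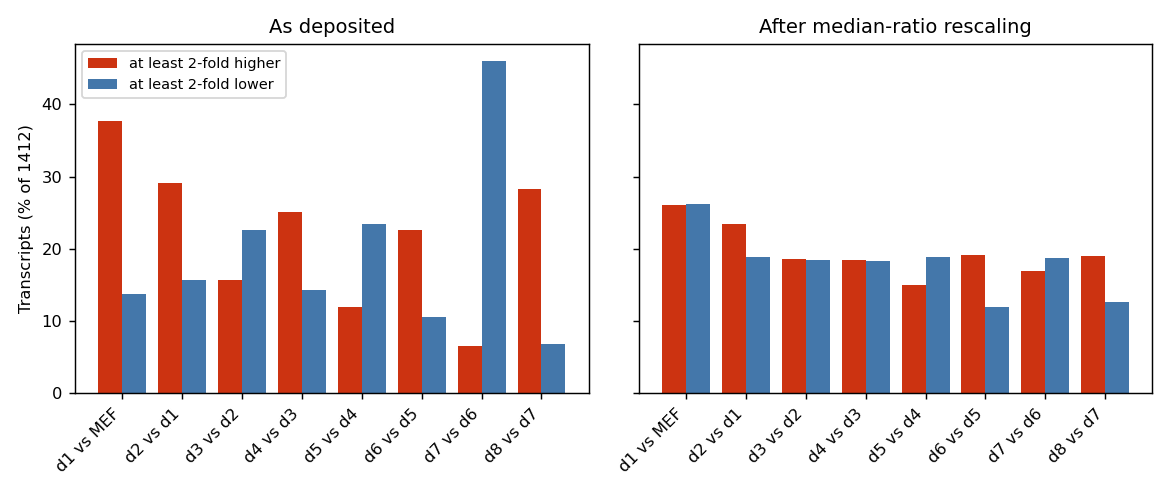
Share of the 1412 genes (vertical, percent) at least 2-fold higher (red) or lower (blue) at each daily step (horizontal, d for day), as deposited on the left and after median-ratio rescaling on the right. As deposited the bars of the first day read 37.7% higher and 13.7% lower, and after rescaling 26.1% and 26.2%, which together exceed each later step.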

How the data were processed

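Small RNA libraries were made per the labels with the TruSeq small RNA kit from total RNA. The authors deposited FPKM values, 1 column per library. Tools listed in the submitters' processing notes are Cufflinks 2.2.1, Bowtie2 2 and CASAVA 1.8.2, with mm10 as the build and no roles stated; their annotation, filter and handling of multi-mapped reads were not given in the sources used here. FPKM is per hairpin or snoRNA gene, not per mature strand, and depends strongly on length in genes this short, so folds were taken within a gene, and FPKM sums over a list weight its genes by that length model.

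From these values the difference of log2(FPKM + 10), day 1 minus MEF, was computed for genes with a mean of at least 10 FPKM over 11 libraries (Python 3.11.15, numpy 2.4.6, pandas 2.3.3, scipy 1.17.1). The pseudocount was 10. Zeros of 7 abundant genes in MEF were treated as missing, and 268 positive values below 0.001 FPKM were kept as they are and given no fold. Alternatives were median-ratio, quantile and miRNA-sum scaling, pseudocounts of 1 and 100, other filters and a 4-fold threshold. Gene IDs were looked up in GENCODE release M21, which held 3712 of 3859; host means the annotated gene whose span holds the snoRNA on its strand.

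Depth was recovered from low values, with an assumed fragment length of 200 ± 80 nt (SD). On day 1 92.2% and in MEF 89.0% of low values were then whole within 0.05 read, where chance gives 10%. The depth was fitted to those same values, so this is no independent check, and reads are called implied for that reason. Because the model is assumed, no count test was run. With 1 library per stage no test was possible; the steps were tested on simulated data.

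The named genes were the 10 largest differences each way with at least 1000 FPKM in the higher library, the 10 miRNAs of highest mean and the members of 35 lists. Members and lists were chosen with earlier results of these data known. Seeds are bases 2 to 8.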

Additional observations from a re-analysis of the deposited data

How the results depend on the processing

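Transcripts at least 2-fold higher on day 1 numbered 533 as deposited, 342 after quantile normalization, 300 at a 4-fold threshold and 169 among genes with at least 100 implied reads, an alternative chosen after seeing the data. Those at least 2-fold lower numbered 194 as deposited, 370 after median-ratio rescaling, 338 after quantile normalization, 112 with a pseudocount of 100, 101 with a mean of at least 100 FPKM, 92 at 4-fold and 52 with at least 100 reads. For miRNAs, 271 higher became 176, 170, 150 and 50 under median ratios, quantile normalization, 4-fold and at least 100 reads, and 147 lower became 295, 256, 69 and 50 under the same 4, and 88 with a mean of at least 100 FPKM. Fewer genes are counted under a stricter filter or threshold by construction; median-ratio scaling lowers day 1 against MEF by construction. The other alternatives for these 4 counts stayed within 1.5 times. Of the 35 list medians 34 moved by more than 0.05 (log2) under median ratios and 4 with a pseudocount of 1. No paired analysis was possible because each stage has 1 library and the labels carry no replicate numbers; leaving out a replicate was not possible for the same reason. Precision is limited for genes under about 50 FPKM, which is near 1 read, and by the lack of replicates throughout.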

Other observations

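Among miRNAs with at least 100 implied reads that belong to none of the lists, several stood higher on day 1; they were chosen after their values were seen. Mir135b, within Lemd1, had 8329 FPKM on day 1 and 592 FPKM in MEF. Mir672 had 26343 FPKM on day 1 and 2160 FPKM in MEF, and Mir504, within Fgf13, had 16534 FPKM on day 1 and 1806 FPKM in MEF. Mir708, within Tenm4, had 86433 FPKM on day 1 and 12743 FPKM in MEF, and stood at 178612 FPKM on day 2. Mir877, a miRNA cut from a short intron of Abcf1, had 27879 FPKM on day 1 and 3339 FPKM in MEF. Of the copies that make the same miR-7 strand, whose reads cannot be assigned to a copy with certainty, Mir7-2 had 244459 FPKM on day 1 and 84791 FPKM in MEF and Mir7-1, within Hnrnpk, had 177314 FPKM on day 1 and 59332 FPKM in MEF. On the lower side, Mir874 within Klhl3 had 3425 FPKM on day 1 and 15614 FPKM in MEF, and Mir339 had 3567 FPKM on day 1 and 9164 FPKM in MEF.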
